A study of Mus musculus with 6 samples.

Results

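Acyl-CoA synthetases are the enzymes that join a fatty acid to coenzyme A, and 10 genes of this family were followed in mouse adipose tissue, out of 19928 genes measured. They were taken from the expression table by symbol, for their place in the family: Acsl1, Acsl3, Acsl4, Acsl5 and Acsl6 of the long-chain branch, Acsm3 and Acsm5 of the medium-chain branch, and Acss1, Acss2 and Acss3 of the short-chain branch. The list was also selected on a measured value, the higher FPKM of Acsm5 in the RAS samples, so the RAS against control values of all 10 genes are given as a description, with no test. RNA-seq was done on adipose tissue of KM mice, 3 samples from mice given radix Angelica sinensis (RAS, a root used in Chinese medicine) in the feed, 10.00 g per kg body weight, and 3 samples from a group whose diet label reads control. High-fat feeding is named in the series title, which asks about an effect of the root against obesity, and the labels do not say whether both groups received it. The sources used here do not give the fat depot, the age or the sex, nor whether a sample is 1 animal or a pool, so differences are read against the spread between these samples.

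A free fatty acid cannot be stored, burned or built into a membrane until it carries coenzyme A. The long-chain enzymes sit on the endoplasmic reticulum, on lipid droplets and on the outer mitochondrial membrane, the medium-chain enzymes work inside mitochondria, and the short-chain enzymes activate acetate or propionate. In fat cells Acsl1 is known as the main long-chain enzyme.

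Each library held an estimated 14.4 to 15.7 M assigned reads. FPKM, a fragment count corrected for transcript length and sequencing depth, is the unit of every level below, and fold differences are on the log2(FPKM + 1) scale, RAS minus control. Fat cell markers were abundant in all 6 libraries (Adipoq, the adipokine adiponectin, at 2357 to 3460 FPKM). Some libraries stood apart. RAS 3 had the highest summed level of 8 brown and beige fat markers (990 FPKM, against 158 and 222 FPKM in the other RAS libraries, and 336 FPKM in control 1, 128 FPKM in control 2 and 63.9 FPKM in control 3). Of these 8 markers, the 6 tested all had a positive difference (median 1.08). Cidea was apart between the groups, at 46.8 to 218 FPKM with RAS and 1.38 to 42.4 FPKM in control. Elovl3 was apart as well, at 0.525 to 13.8 FPKM with RAS and 0.029 to 0.219 FPKM in control. Both were highest in RAS 3. Ucp1, Dio2, Prdm16, Cox7a1, Cox8b and Kcnk3 overlapped. Control 3 held liver markers (7 genes summed, 171 FPKM, against 7.06 to 19.0 FPKM elsewhere). The sum of 7 skeletal muscle markers was lower in every RAS library (22.5, 60.8 and 35.8 FPKM in RAS 1, 2 and 3) than in any control (202, 136 and 69.2 FPKM in controls 1, 2 and 3). Most of that sum was 1 gene, Acta1 (21.2, 59.6 and 34.3 FPKM in RAS 1, 2 and 3, against 180, 134 and 66.8 FPKM in controls 1, 2 and 3). Ckm was also lower, by a narrow margin (at most 0.298 FPKM with RAS, at least 0.302 FPKM in control). Tnnc2, Tnni2, Mylpf, Myh1 and Myh4 overlapped between the groups. The 5 smooth muscle markers all had a negative difference (median -0.58), with sums of 257 to 300.0 FPKM with RAS and 283 to 447 FPKM in control, and the 3 tested of 5 red blood cell markers a positive one (median 0.76), with sums of 746 to 1797 FPKM with RAS and 483 to 858 FPKM in control. The part of these cell types in the differences that follow was not tested.

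The promoter windows of 3 genes are shown because their levels carry the results that follow: Acsm5 and Acsm3, which lie in the Acsm gene row of chromosome 7 with Acsm1 and Acsm4 between them, and Acsl1 with both of its annotated starts. Each window runs from 250 bases before to 50 bases after a RefSeq start (build GRCm38.p6, all on the plus strand), at chr7:119526015-119526314 for Acsm5, chr7:119760673-119760972 for Acsm3, chr8:46470787-46471086 for the first Acsl1 start and chr8:46490716-46491015 for the second. Capitals mark matches, on either strand, to CACGTG (the E-box read by CLOCK and its partners), to AGGTCA (the half-site of nuclear receptors), to TCACNCCA (a form of the sterol response element) and to CCAAT. No matches of different motifs overlapped in these windows.
Acsm5: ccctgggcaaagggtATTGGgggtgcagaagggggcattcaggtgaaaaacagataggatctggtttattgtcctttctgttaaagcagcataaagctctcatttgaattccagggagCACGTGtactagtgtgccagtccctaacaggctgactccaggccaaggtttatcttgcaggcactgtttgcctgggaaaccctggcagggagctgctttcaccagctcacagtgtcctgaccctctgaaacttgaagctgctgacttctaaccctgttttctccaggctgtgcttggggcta
Acsm3: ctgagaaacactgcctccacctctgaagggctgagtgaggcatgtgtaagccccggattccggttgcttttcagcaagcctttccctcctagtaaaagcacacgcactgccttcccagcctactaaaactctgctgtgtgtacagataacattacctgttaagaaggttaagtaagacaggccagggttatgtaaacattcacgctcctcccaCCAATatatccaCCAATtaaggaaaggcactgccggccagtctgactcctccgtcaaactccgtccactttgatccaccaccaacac
Acsl1 first start: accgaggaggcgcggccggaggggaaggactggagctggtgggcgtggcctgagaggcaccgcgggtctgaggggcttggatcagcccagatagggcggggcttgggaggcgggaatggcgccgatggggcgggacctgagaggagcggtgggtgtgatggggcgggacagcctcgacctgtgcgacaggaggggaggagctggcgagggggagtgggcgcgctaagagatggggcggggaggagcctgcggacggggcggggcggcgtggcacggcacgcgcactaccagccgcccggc
Acsl1 second start: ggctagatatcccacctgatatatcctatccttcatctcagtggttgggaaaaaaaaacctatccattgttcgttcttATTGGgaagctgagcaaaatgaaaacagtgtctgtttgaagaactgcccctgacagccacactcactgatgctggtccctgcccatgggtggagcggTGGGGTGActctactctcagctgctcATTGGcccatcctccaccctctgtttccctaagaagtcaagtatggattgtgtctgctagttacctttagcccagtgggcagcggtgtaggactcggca

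RefSeq windows were at hand for 9 of the 10 genes, 12 windows in all, and the motifs were chosen with the expression results known. The Acsm5 window held CACGTG starting 132 bases before the start, and it was the 1 member window of 12 with that motif, which 7.15% of all 32851 windows hold. TCACNCCA was in 1 member window, the second Acsl1 start, 75 bases before it on the minus strand (4.36% of all windows). CCAAT was in 8 of the 12 member windows (37.4% of all windows), among them Acsm3, with copies 37 and 25 bases before its start. AGGTCA was in 1 member window, of Acsl6 (16.3% of all windows). A match describes the letters and does not show that a factor binds there.

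The family covered a wide range of levels, and its order was led by Acsl1. Acsl1 averaged 590.2 FPKM over the 6 samples (356 to 954 FPKM), and its lowest sample lay above the highest sample of any other member. Acss2 came next at 74.5 FPKM and Acss3 at 33.3 FPKM. Acss2 exceeded Acss3 in 6 of 6 samples although their ranges overlapped. Acsl5 at 20.7 FPKM lay below Acss3 and above Acsm3 in every sample, with no overlap of the ranges on either side. The middle of the order was not settled by these samples: Acsm3 (11.0 FPKM), Acsl4 (7.88 FPKM), Acsm5 (6.79 FPKM), Acss1 (4.56 FPKM) and Acsl3 (4.11 FPKM) overlapped each with its neighbour. Acsm5 lay above Acsl4 in 3 of 3 RAS samples and below it in 3 of 3 control samples. Acsl6 was at 0.046 FPKM.

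**Figure D1:**
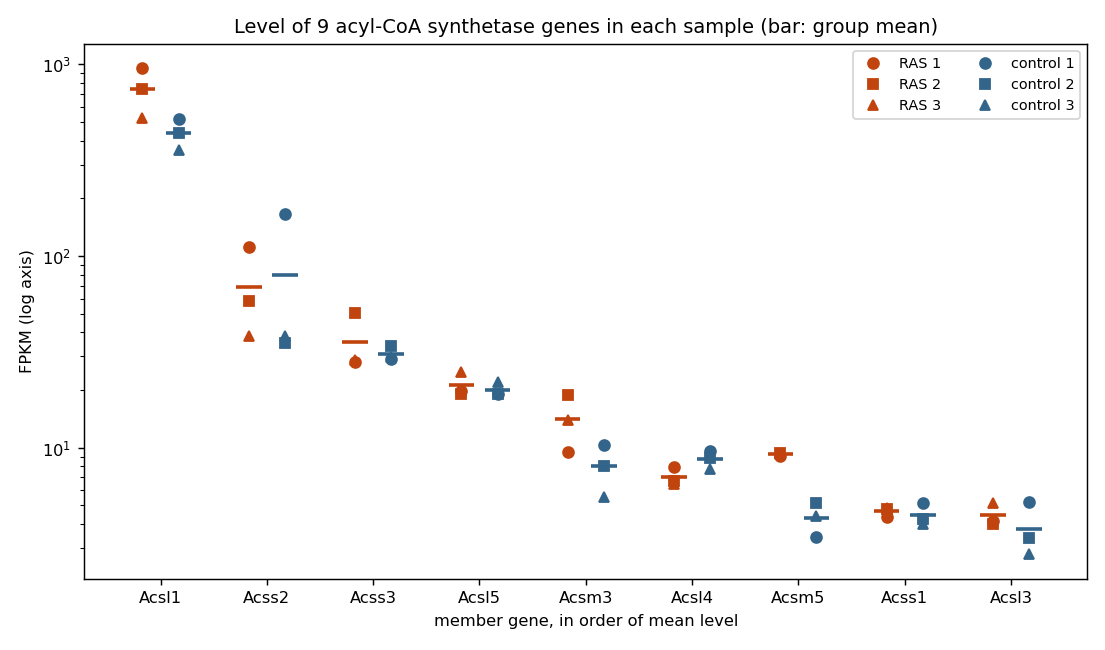
Levels of 9 members in FPKM on a log axis, 1 point per sample with the group mean as a bar, RAS (red) left of control (blue), genes in order of mean level (Acsl6, at or below 0.098 FPKM, is left out). The RAS and control points are apart for Acsl1 and Acsm5 and overlap for the other 7 genes, and Acss2 spans 35.3 to 166 FPKM.

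Summed over the 10 genes, the level was 1148, 915 and 658 FPKM in RAS 1, 2 and 3, against 769, 557 and 471 FPKM in controls 1, 2 and 3. RAS 3 lay below control 1, so the groups overlapped. Acsl1 took 83.1, 81.3 and 80.0% of that sum in RAS 1, 2 and 3, against 67.8, 78.8 and 75.7% in controls 1, 2 and 3. Its share was higher in every RAS sample than in any control sample. The low share in control 1 went with Acss2, which took 21.5% of the sum there and 5.81 to 9.68% in the other 5 samples.

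**Figure D2:**
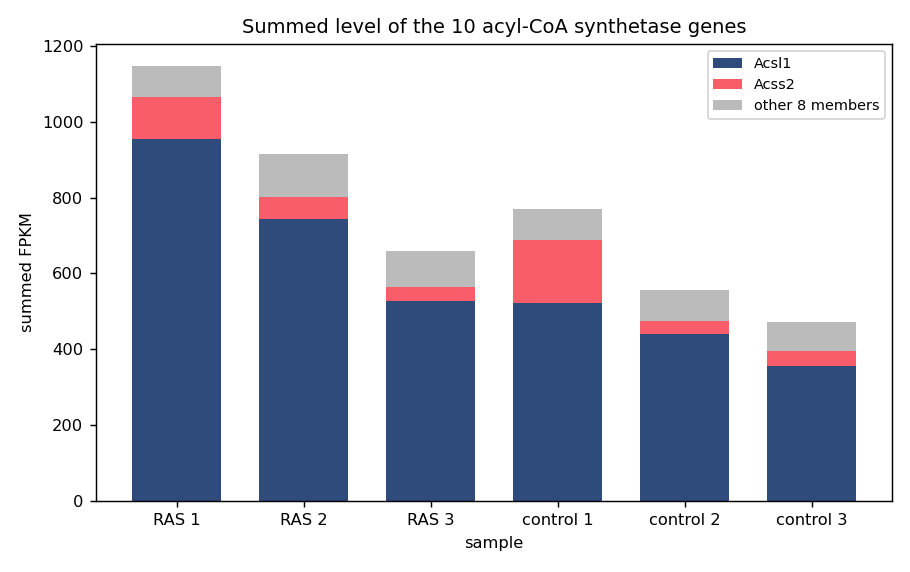
Summed FPKM of the 10 genes in each sample, divided into Acsl1, Acss2 and the other 8 members. Acsl1 makes up 67.8 to 83.1% of each bar, and the Acss2 block is largest in control 1.

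Of the 9 members with a mean level of at least 1 FPKM, the minimum for the fit across all genes, 8 had a positive and 1 a negative log2 difference, with a median of 0.15, where 43.0% of all 12606 genes tested were positive and their median was -0.04. In limma's test across all genes, 0 of 12606 genes had an adjusted p under 0.05 (0% of genes; smallest adjusted p 0.138) and 1294 had an unadjusted p under 0.05 (10.3%). The groups did not overlap for 2 of the 9 members, Acsl1 and Acsm5, both higher with RAS, against 17.9% of all genes tested in either direction and 5.42% on the higher side. Since Acsm5 was part of the choice, nothing is read from that count. The count, and with it the share over all genes, was higher with some libraries left out: without RAS 1 they were 4 members (Acsm3 higher and Acsl4 lower in addition) and 27.4% of genes, and without control 1 they were 5 members (Acsm3, Acsl3 and Acss1 higher in addition) and 30.8% of genes. Under quantile normalization the count was 1, Acsm5, with 17.2% of genes apart.

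**Figure D3:**
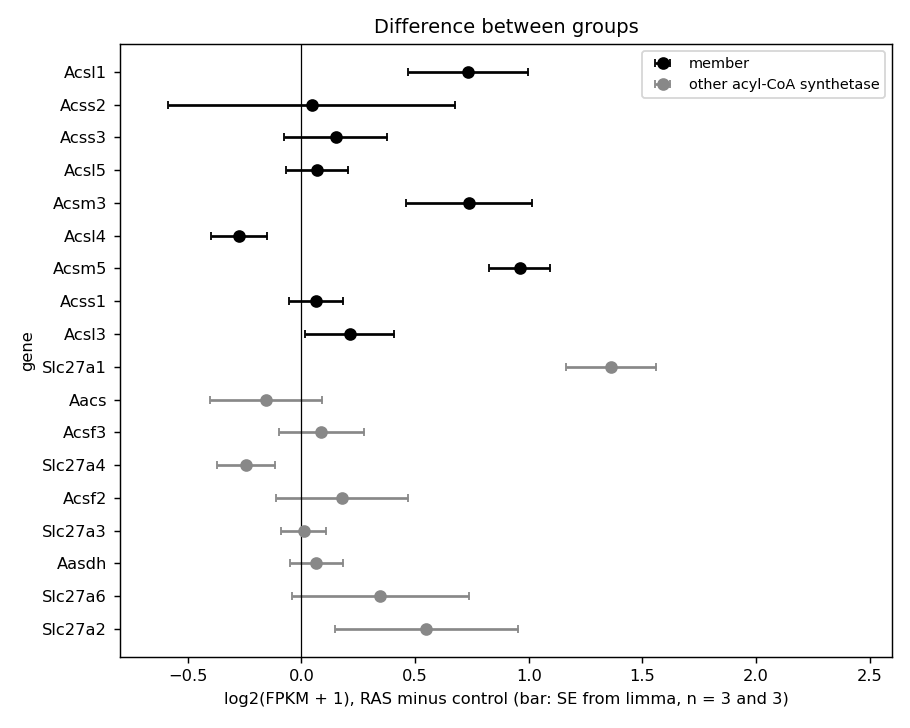
RAS minus control difference in log2(FPKM + 1) with its SE for the 9 members at or above a mean of 1 FPKM (black) and 9 other acyl-CoA synthetase genes (grey), n = 3 samples a group. Acsm5 (0.96), Acsm3 (0.74) and Acsl1 (0.73) lie on the higher side among the members, Acsl4 (-0.27) on the lower side, and Slc27a1 (1.36) leads the others.

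In the long-chain branch, Acsl1 (NCBI gene 14081; chromosome 8, 46471042 to 46536050) was at 954, 744 and 526 FPKM in RAS 1, 2 and 3, and at 522, 439 and 356 FPKM in controls 1, 2 and 3. Every RAS sample was above every control sample, but RAS 3 exceeded control 1 by a narrow margin. The means were 741 ± 214 FPKM with RAS and 439 ± 82.6 FPKM in control (SD, n = 3 each, as below), 1.69 times as high, and the log2 difference was 0.73 ± 0.26 (SE). It was 0.96 without RAS 3 and 0.53 without RAS 1. Under quantile normalization it was also 0.53, and there the groups overlapped. The sum of 8 fat cell markers, most of it Fabp4, was also apart between the groups, at 36908 to 53443 FPKM with RAS and 26862 to 33398 FPKM in control. Of these 8 markers Fabp4, Cidec and Lipe were higher and Lep lower in every RAS sample, while Adipoq, Plin1, Pparg and Cebpa overlapped. Of all genes tested, 5.42% were apart on the higher side and 12.5% on the lower side. The part of the fat cell share in the Acsl1 difference was not tested, and in whole tissue fewer cells of a type and less RNA per cell cannot be told apart.

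Acsl4, which prefers arachidonate and so feeds it into membrane lipids, was the 1 member of those 9 with a negative difference. It was at 7.96, 6.72 and 6.45 FPKM in RAS 1, 2 and 3, and at 9.58, 8.86 and 7.74 FPKM in controls 1, 2 and 3. RAS 1 lay above control 3, so the groups overlapped by 1 pair of samples. The log2 difference was -0.27 ± 0.12 (SE). The level of Acsl1 relative to Acsl4 was 120, 111 and 81.6 in RAS 1, 2 and 3, against 54.4, 49.5 and 46.1 in controls 1, 2 and 3. These ratios of FPKM did not overlap, but they set the higher Acsl1 over the member with a negative difference, so nothing is read from that. Acsl1 relative to Acsl5 did overlap, at 48.5, 39.0 and 21.1 in RAS 1, 2 and 3, against 27.4, 22.9 and 16.2 in controls 1, 2 and 3.

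Acsl5, an enzyme of the endoplasmic reticulum and mitochondria, was the steadiest of the long-chain members. It was at 19.7, 19.1 and 24.9 FPKM in RAS 1, 2 and 3, and at 19.1, 19.2 and 22.0 FPKM in controls 1, 2 and 3 (log2 difference 0.07 ± 0.14, SE, which was -0.05 without RAS 3). Acsl3, found on the endoplasmic reticulum and on growing lipid droplets, was at 4.13, 4.01 and 5.17 FPKM in RAS 1, 2 and 3, and at 5.19, 3.37 and 2.77 FPKM in controls 1, 2 and 3 (log2 difference 0.21 ± 0.20, SE). Its highest levels were in control 1 and RAS 3, the libraries with the highest sums of brown and beige fat markers, and the part of those markers was not tested. The locus given for Acsl3 also holds Utp14b, at 1.35 FPKM in control 1 and 0.334 to 0.651 FPKM in the other libraries. How reads were divided between Acsl3 and Utp14b was not tested. Acsl6, an enzyme best known from brain, rested on an estimated 0 to 5 reads a library (0 or 1 with RAS and 3 to 5 in control). It was not tested, and no fold is given at that depth.

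In the medium-chain branch, Acsm5 (NCBI gene 272428; chromosome 7, 119526265 to 119543360) was at 9.09, 9.40 and 9.29 FPKM in RAS 1, 2 and 3, and at 3.44, 5.14 and 4.38 FPKM in controls 1, 2 and 3. The lowest RAS sample stood well above the highest control sample. The means were 9.26 ± 0.16 FPKM with RAS and 4.32 ± 0.86 FPKM in control, 2.14 times as high, with a log2 difference of 0.96 ± 0.14 (SE) that lay between 0.83 and 1.15 under every alternative run. The values rested on an estimated 425 to 435 reads with RAS and 165 to 277 reads in control. The 3 RAS samples differed by an SD of 1.68% of their mean, where counting alone would give about 4.82% at that depth. Acsm5 is also a liver gene, and control 3, the library with liver markers, was at 4.38 FPKM, where controls 1 and 2 were at 3.44 and 5.14 FPKM; the part of liver RNA was not tested.

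Acsm3, its relative further along the same row (NCBI gene 20216; chromosome 7, 119742819 to 119794058 as the table gives the locus), was at 9.51, 18.8 and 14.0 FPKM in RAS 1, 2 and 3, and at 10.4, 8.06 and 5.54 FPKM in controls 1, 2 and 3. RAS 2 and RAS 3 were above all controls and RAS 1 was below control 1. The log2 difference was 0.74 ± 0.28 (SE), and it was 0.52 without RAS 2 and 0.97 without RAS 1. Reads of Acsm3 may be mixed with those of Eri2, an exonuclease gene read from the other strand of the same locus, which was listed at 3.60 to 5.15 FPKM. The 2 Acsm genes did not keep a fixed proportion: Acsm3 over Acsm5 was 1.05, 2.00 and 1.50 in RAS 1, 2 and 3, against 3.02, 1.57 and 1.27 in controls 1, 2 and 3. The other genes of the row in the table, Acsm1 and Acsm4, were listed at 0 in 5 of 6 libraries and at 0.316 and 0.024 FPKM in control 3.

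Gene models without a name left aside, the genes whose pattern lay closest to Acsm5 were Smad6, Acad11 and Tef. Smad6 is an inhibitor of BMP signalling, Acad11 an acyl-CoA dehydrogenase of fatty acid oxidation and Tef a clock output transcription factor. Likeness was the distance between deviations from each gene's mean over the 6 samples on the log2(FPKM + 1) scale, 0.34 for Smad6, 0.41 for Acad11 and 0.41 for Tef, where the deviations of Acsm5 itself have a size of 1.22. Acsm5 was selected for its higher level with RAS, so genes this close to it are bound to be higher with RAS too. Nothing is read from that direction. Acad11 was at 94.8, 108 and 110.4 FPKM in RAS 1, 2 and 3, and at 60.8, 66.0 and 58.0 FPKM in controls 1, 2 and 3. Tef was at 54.2, 56.4 and 47.8 FPKM in RAS 1, 2 and 3, and at 24.5, 42.4 and 30.1 FPKM in controls 1, 2 and 3. The same measure placed Tmem120b (0.34), Fsd2 (0.35) and Aim1 (0.37) nearest to Acsl1, whose own size is 1.15. Tmem120b, a nuclear envelope protein of fat cells, was at 109, 89.4 and 66.3 FPKM in RAS 1, 2 and 3, and at 80.4, 53.1 and 46.4 FPKM in controls 1, 2 and 3. Within each group its samples ranked as they did for Acsl1. The search for near genes favours such a ranking, so nothing is read from it. The groups of Tmem120b overlapped.

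**Figure D4:**
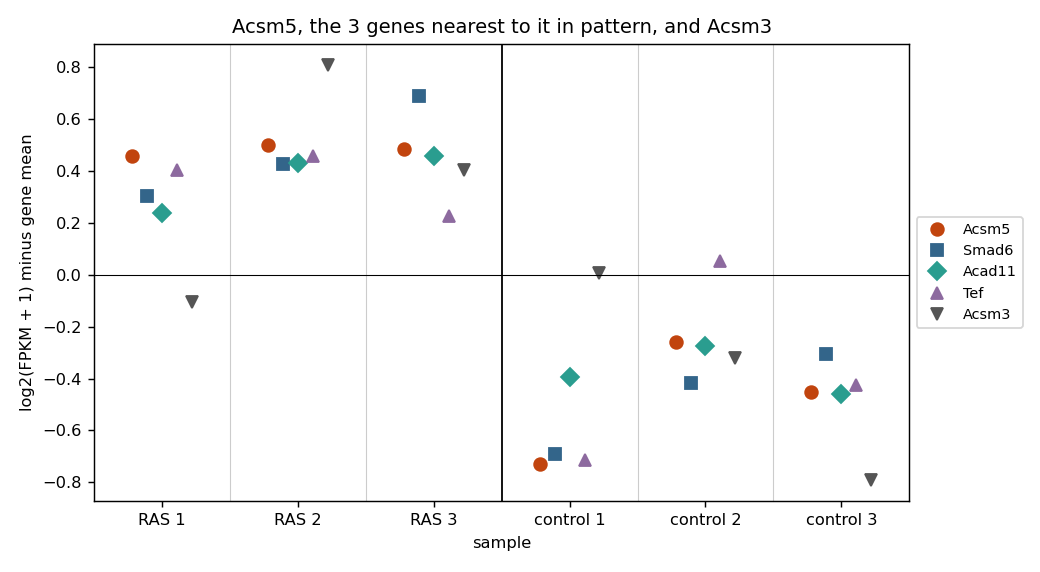
Deviation of log2(FPKM + 1) from the gene's mean over the 6 samples, by sample, for Acsm5, the 3 genes nearest to it and Acsm3. The Acsm5 points sit level in the 3 RAS samples and lowest in control 1, whereas Acsm3 is highest in RAS 2 and lowest in control 3.

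The short-chain branch was dominated by Acss2 (NCBI gene 60525; chromosome 2, 155518043 to 155562743), the acetate-activating enzyme of cytosol and nucleus and a known target of SREBP factors. It was at 111, 58.2 and 38.2 FPKM in RAS 1, 2 and 3, and at 166, 35.3 and 38.3 FPKM in controls 1, 2 and 3. The spread lay within the groups, from the highest to the lowest control by 4.70 times, and not between them (log2 difference 0.04 ± 0.63, SE). The sign of that difference turned with the library left out: 0.76 without control 1, 0.40 without RAS 3 and 0.10 without RAS 2, against -0.36 without RAS 1, -0.34 without control 2 and -0.28 without control 3.

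Genes of fatty acid synthesis were highest in the same samples as Acss2. Fasn, the fatty acid synthase, was at 1076, 803 and 411 FPKM in RAS 1, 2 and 3, and at 1249, 237 and 241 FPKM in controls 1, 2 and 3. Acaca, which makes malonyl-CoA, was at 147, 129 and 54.3 FPKM in RAS 1, 2 and 3, and at 176, 39.0 and 42.4 FPKM in controls 1, 2 and 3. Acly, which makes acetyl-CoA from citrate, was at 155, 78.5 and 80.0 FPKM in RAS 1, 2 and 3, and at 331, 80.6 and 89.1 FPKM in controls 1, 2 and 3 (Acaca and Acly were named after their values were seen). All 4 genes had their highest level in control 1 and their next in RAS 1, and Acss2 in RAS 2 was nearer its low samples than Fasn and Acaca were. Markers of mesothelium, the lining of visceral fat, ran the other way in those libraries: the 4 genes summed to 74.3, 127 and 114 FPKM in RAS 1, 2 and 3, and to 23.4, 139 and 184 FPKM in controls 1, 2 and 3. The part of tissue composition in the Acss2 spread was not tested.

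**Figure D5:**
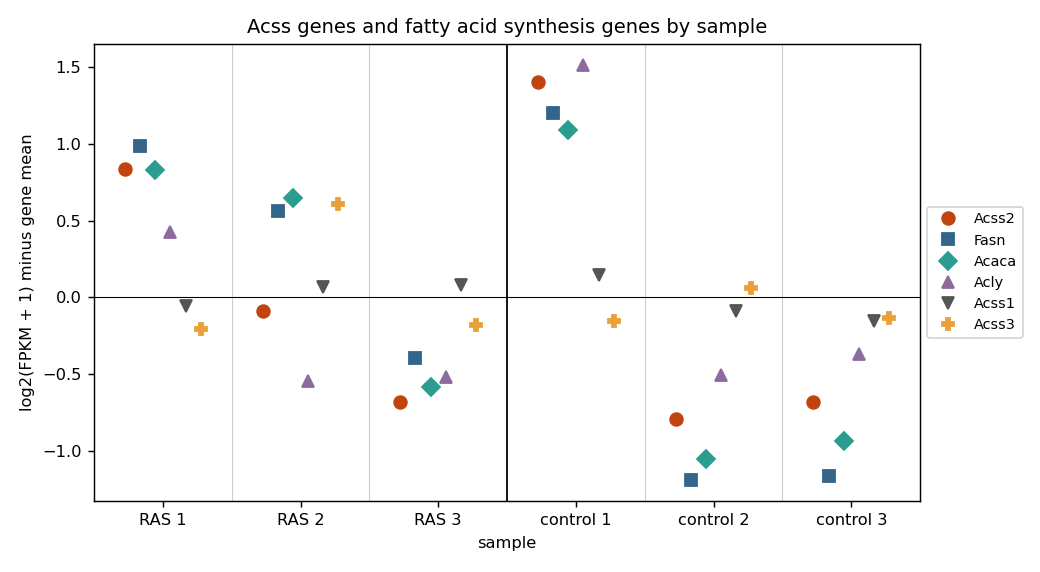
Deviation of log2(FPKM + 1) from the gene's mean over the 6 samples, by sample, for Acss2, Acss1 and Acss3 and for the fatty acid synthesis genes Fasn, Acaca and Acly. Acss2 and the synthesis genes are highest in control 1 and next in RAS 1, while Acss1 stays near 0 and Acss3 stands out in RAS 2.

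Acss1, the acetate-activating enzyme of mitochondria, was level across the samples. It was at 4.34, 4.81 and 4.88 FPKM in RAS 1, 2 and 3, and at 5.13, 4.23 and 3.98 FPKM in controls 1, 2 and 3 (log2 difference 0.06 ± 0.12, SE). Acss2 thus exceeded Acss1 by 7.84 to 32.3 times, depending on the sample. The locus that the table gives for Acss1 also holds 2310001A20Rik at 73.9 to 136 FPKM, and how reads were divided between the 2 genes was not tested. Acss3, a mitochondrial enzyme that prefers propionate, was at 28.1, 50.3 and 28.7 FPKM in RAS 1, 2 and 3, and at 29.2, 34.1 and 29.6 FPKM in controls 1, 2 and 3. RAS 2 was the single high sample, and the log2 difference of 0.15 ± 0.23 (SE) was -0.12 without it.

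Beyond the 10 genes, the table holds 14 other acyl-CoA synthetases of a list of 15. Of these, 9 were tested, 7 with a positive and 2 with a negative difference (median 0.09), and 0 passed limma's adjusted p. Over all genes tested, 43.0% were positive and the median was -0.04. Slc27a1, a fatty acid transport protein with synthetase activity, was at 267, 358 and 316 FPKM in RAS 1, 2 and 3, and at 108, 152 and 107 FPKM in controls 1, 2 and 3 (log2 difference 1.36 ± 0.20, SE; limma adjusted p = 0.174). Its mean over the 6 samples, 218 FPKM, came next to that of Acsl1 among the synthetases here, but in control 1 Acss2 was higher, at 166 FPKM. Slc27a4, of the same transport family, was at 11.6, 12.1 and 10.2 FPKM in RAS 1, 2 and 3, and at 15.6, 12.4 and 12.7 FPKM in controls 1, 2 and 3 (log2 difference -0.24 ± 0.13, SE). Its groups did not overlap, with RAS on the lower side. Of the 9 tested, 2 were apart, Slc27a1 higher and Slc27a4 lower, where 5.42% of all genes tested were apart on the higher side and 12.5% on the lower side.

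Aacs, which activates the ketone body acetoacetate, was at 65.0, 52.8 and 65.6 FPKM in RAS 1, 2 and 3, and at 99.4, 61.7 and 51.0 FPKM in controls 1, 2 and 3. Acsf2 ranged from 11.2 to 14.1 FPKM with RAS and from 7.66 to 18.7 FPKM in control, and Acsf3, the malonyl-CoA synthetase of mitochondria, from 12.4 to 15.2 FPKM with RAS and from 10.5 to 16.8 FPKM in control. Slc27a2 reached 3.20 FPKM in RAS 3 and 1.40 FPKM in control 3 and was below 1 elsewhere. Aasdh (log2 difference 0.06), Slc27a3 (0.01) and Slc27a6 (0.35) overlapped between the groups. Slc27a5, the bile acid synthetase of liver, was listed at 1.16 FPKM in control 3 and at or below 0.058 FPKM in the other libraries, and Acsbg1 and Acsbg2 were at or below 0.403 FPKM everywhere.

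The fates of acyl-CoA were read in lists of other enzymes. Their signs stand beside those of all genes tested, of which 43.0% were positive, with a median of -0.04. Of 15 genes of the carnitine shuttle and mitochondrial beta-oxidation, 13 had a positive and 2 a negative difference (median 0.31). That median was 0.53 without control 1 and 0.18 without RAS 3. Of these genes, 0 passed limma's adjusted p (smallest 0.350, for Slc25a20). Slc25a20, the carnitine carrier, was at 39.7, 45.2 and 66.0 FPKM in RAS 1, 2 and 3, and at 35.7, 26.4 and 25.1 FPKM in controls 1, 2 and 3. Its groups did not overlap, as for no other gene of the 15, where 17.9% of all genes tested were apart. Hadhb, a subunit of the trifunctional protein and the most abundant gene of the list, was at 232, 204 and 333 FPKM in RAS 1, 2 and 3, and at 266, 149 and 129 FPKM in controls 1, 2 and 3. RAS 3 and control 1 were its highest samples, as they were for the sum of the brown and beige fat markers, though not for each marker. The part of those markers was not tested.

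Of 15 tested genes that use acyl-CoA in glycerolipid synthesis, 7 were positive and 8 negative (median -0.01), and 0 passed (smallest limma adjusted p 0.369). Dgat1, which adds the last acyl chain to triglyceride, was at 173, 157 and 147 FPKM in RAS 1, 2 and 3, and at 132, 98.4 and 102 FPKM in controls 1, 2 and 3, with no overlap. Lpin3, a phosphatidate phosphatase, went the other way, at 3.05, 2.20 and 3.35 FPKM in RAS 1, 2 and 3, and at 3.90, 4.60 and 4.61 FPKM in controls 1, 2 and 3. Its groups did not overlap either. In all, 4 of the 15 genes were apart, Dgat1 higher with RAS and Lpin3, Lpin2 and Agpat5 lower. Of all genes tested, 5.42% were apart on the higher side and 12.5% on the lower side. Agpat6, a glycerol-3-phosphate acyltransferase, was at 34.4 to 47.9 FPKM with RAS and 27.6 to 35.3 FPKM in control. Dgat2, the most abundant gene of this list, spanned 437 to 1094 FPKM with RAS and 657 to 1361 FPKM in control.

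Of 15 genes of acetyl-CoA supply and use, 12 were positive and 3 negative (median 0.34), and 0 passed (smallest limma adjusted p 0.338). Acacb, the acetyl-CoA carboxylase of mitochondria, was at 40.1, 52.9 and 50.0 FPKM in RAS 1, 2 and 3, and at 35.6, 16.6 and 12.5 FPKM in controls 1, 2 and 3, with no overlap. It was the 1 gene of the 15 whose groups were apart, where 17.9% of all genes tested were. The 4 genes that carry propionyl-CoA onward, downstream of Acss3, were split 1 positive and 3 negative (median -0.06; smallest limma adjusted p 0.736), and Pccb, the most abundant, was at 74.3 to 89.0 FPKM with RAS and 73.1 to 105 FPKM in control. None of these genes had the single high value of Acss3 in RAS 2.

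Among 8 tested genes of acyl-CoA binding and phospholipid remodelling, 4 were positive and 4 negative (median -0.03), and 0 passed (smallest limma adjusted p 0.451, for Lpcat1). Lpcat1, a lysophosphatidylcholine acyltransferase, was at 5.56, 5.18 and 5.28 FPKM in RAS 1, 2 and 3, and at 6.38, 7.19 and 6.20 FPKM in controls 1, 2 and 3. The groups were apart for 3 of the 8 genes, Lpcat1, Acbd3 and Mboat7, all lower with RAS, where 12.5% of all genes tested were. Dbi, the acyl-CoA binding protein, was far more abundant, at 3478 to 4877 FPKM with RAS and 2975 to 3922 FPKM in control. Among 10 tested regulators of the family, 5 were positive and 5 negative (median -0.03), and 0 passed (smallest limma adjusted p 0.347). Ppara, the receptor that drives acyl-CoA synthetase genes in liver, was at 2.80, 4.06 and 4.03 FPKM in RAS 1, 2 and 3, and at 2.28, 2.09 and 1.11 FPKM in controls 1, 2 and 3. Srebf2, a SREBP gene of sterol synthesis, was at 10.1, 8.36 and 7.50 FPKM in RAS 1, 2 and 3, and at 12.5, 10.9 and 10.5 FPKM in controls 1, 2 and 3. Pparg, the fat cell receptor and the most abundant of these regulators, was at 90.7 to 109 FPKM with RAS and 67.9 to 128 FPKM in control.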

How the data were processed

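RNA-seq of adipose tissue was taken from 6 samples, 3 RAS and 3 control, in a table of 19928 genes that the authors deposited. The FPKM values the authors deposited were used unchanged. The submitters' processing notes name TopHat2 2.0.9 and Cufflinks 2.1.1. Genome build, annotation and filters are not stated there. The loci of all 10 members overlapped the GENCODE M21 gene (GRCm38) of the same Ensembl identifier, and starts are printed counted from 1. The locus of 4 members is shared with other genes, and the labels name no strand-specific step.

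The authors also deposited a scaled count signal, in which 99.34 to 99.42% of the values between 0 and 5000 lay within 0.02 read of a whole multiple of 1 step per sample. A separate check over the whole columns did not recover whole reads, so the reads given, that signal divided by its step, are estimates, and no count model was run. Columns carrying the group name of the treatment protocol were taken as RAS, and the other numbered set of 3 as control by elimination. The 4 columns that hold 1 value per group were left aside.

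The test was limma's moderated test with a trend on log2(FPKM + 1) over genes with a mean of at least 1 FPKM, two-sided, at an adjusted p (Benjamini-Hochberg) of 0.05, and it was checked on simulated data. Named genes were all members, every other synthetase, the 3 genes nearest to Acsm5 and to Acsl1, up to 4 genes of each list with an unadjusted p under 0.05, and the most abundant gene of each list. Gene models without a name were left out of the search for nearest genes. Alternatives were a pseudocount of 0.1, no minimum or a minimum of 5 FPKM, quantile normalization, median-ratio size factors, a replicate block and leaving out each library. Chosen after seeing the data were the scaled signal in place of FPKM and the fit without both RAS 3 and control 1. The members, lists and motifs were chosen with earlier results of these data known. Software was R 4.3.3, limma 3.58.1, Python 3.11.15, pandas 2.3.3, numpy 2.4.6 and matplotlib 3.10.9.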

Additional observations from a re-analysis of the deposited data

How the results depend on the processing

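The number of genes past an adjusted p of 0.05 in limma was 0 in each setting with all 6 libraries, 0 to 2 with 1 library left out, and 3 without RAS 3 and control 1. Genes whose groups do not overlap numbered 3359 to 3876 (26.6 to 30.8% of genes) with 1 library left out and 5860 without RAS 3 and control 1, since fewer samples overlap less often, and members 2 to 5 and 6, against 1 under quantile normalization. Positive differences were found for 7 or 8 of 9 members tested, for 8 of 10 with no minimum FPKM and for 6 of 7 with a minimum of 5 FPKM. Acsl1, Acsl3, Acsl4, Acsm3, Acsm5 and Acss1 kept the sign of their difference in every alternative that tested them, while Acsl5, Acss2 and Acss3 did not. The mean Acsl1 share was 77.8% over all 6 samples. It was lowest without RAS 1, at 76.7%, and highest without control 1, at 79.8%. Leaving out 1 of 6 values can move a mean only a little, so this is no strong check. Labels number the samples 1 to 3 in both groups. Deviations from the group means correlated at 0.178, 0.096 and 0.219 between samples of the same number, and every sample correlated best with its own number, a hint from the data and not from the design. With the replicate block, 0 genes passed and 1663 had an unadjusted p under 0.05, against 1294 without it. The block cannot change the members' counts of 8 positive and 2 apart, since each number occurs once in each group. Only the SEs could move: from 0.26 to 0.13 for Acsl1 and from 0.63 to 0.25 for Acss2, but from 0.12 up to 0.13 for Acss1. With 3 samples a group the SDs themselves are uncertain, and Acsl6 was too shallow to compare.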
